A study of Drosophila melanogaster with 12 samples.

Results

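This account concerns the heads of female Drosophila melanogaster that lack Nab2, set against wild-type female heads. Nab2 is a nuclear zinc finger protein that binds polyadenosine tracts in RNA and restrains poly(A) tail length. It is the fly orthologue of human ZC3H14, whose loss causes an inherited intellectual disability, and in flies it acts in neurons for normal brain wiring and behaviour. The libraries were taken by their titles: 3 of null females with genotype Nab2ex3 and 3 of wild-type females with genotype Nab2pex41, which makes 6 of the 12 libraries in the series. The other 6 are males of the same genotypes, 3 null and 3 wild type. All flies were newly eclosed adults, and 60 whole heads were pooled for each library, so each value is an average over brain, eyes, antennae, fat body, muscle and cuticle. Total RNA was depleted of ribosomal RNA and sequenced with a stranded kit. The null is a germline allele that removes the gene from all cells, and the control line descends, as background, from a precise excision of the same transposon insertion.

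The question asked of these 6 libraries was which pathways and gene classes differ in heads that lack the protein. Of 17737 genes in the count files 11223 passed a filter on low counts and were tested with edgeR. A gene is said to be called, or to have risen or fallen in the null, where its p-value adjusted over all 11223 genes was under 0.05. Values are CPM, read counts divided by the scaled library size, and a log2 change of 1 is a doubling in the null. In females 3573 genes were called, 31.8% of those tested, with 18.2% higher and 13.6% lower in the null. At a change of at least 2-fold the share was 6.55%, with 3.97% higher and 2.58% lower. A share of a gene list close to these values is therefore no more than the background. The null and wild-type female libraries did not overlap in 47.9% of tested genes. A lack of overlap was also a condition for naming most of the genes below, so it adds no support for them. Calls that held in each of 6 fits that left out 1 female library numbered 1765, with 9.53% of genes higher and 6.2% lower. The median log2 change of all tested genes was 0.01, against which the median of each list can be read. Scaling by total counts alone put that median at -0.10 and turned the split to 1392 higher and 2253 lower, so the balance of rises and falls over all genes rests on the scaling.

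The female libraries held 23656759 to 28453392 counts. Null library 1 stood apart from the other 2 null libraries. Its correlation with them across genes was 0.984 and 0.986, against 0.995 between those 2 and 0.993 to 0.995 among the wild-type libraries. Its scaling factor was 0.865, against 0.965 and 0.968 in null libraries 2 and 3 and 0.996 to 1.02 in wild type. The levels in null females also ran with gene length. In null library 1 the median log2 level over the wild-type mean was 0.41 in the shortest of 5 equal classes of exonic length (31 to 981 bases) and -0.37 in the longest (3888 bases and more). The same medians were 0.11 and -0.10 in null library 2, 0.15 and -0.11 in null library 3, and between -0.08 and 0.09 in the wild-type libraries. In the shortest class 28.8% of genes were called higher and 6.13% lower, and in the longest class 4.79% were called higher and 24.9% lower. In males the corresponding medians of the null effect were 0.05 and -0.02. Lists of short genes (ribosomal proteins, respiratory chain subunits) and of long genes (synapse, ion channels) are therefore given also with a model in which the length trend of each library was removed, an alternative added after the data were seen. That model also removes any true change that runs with length.

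**Figure D1:**
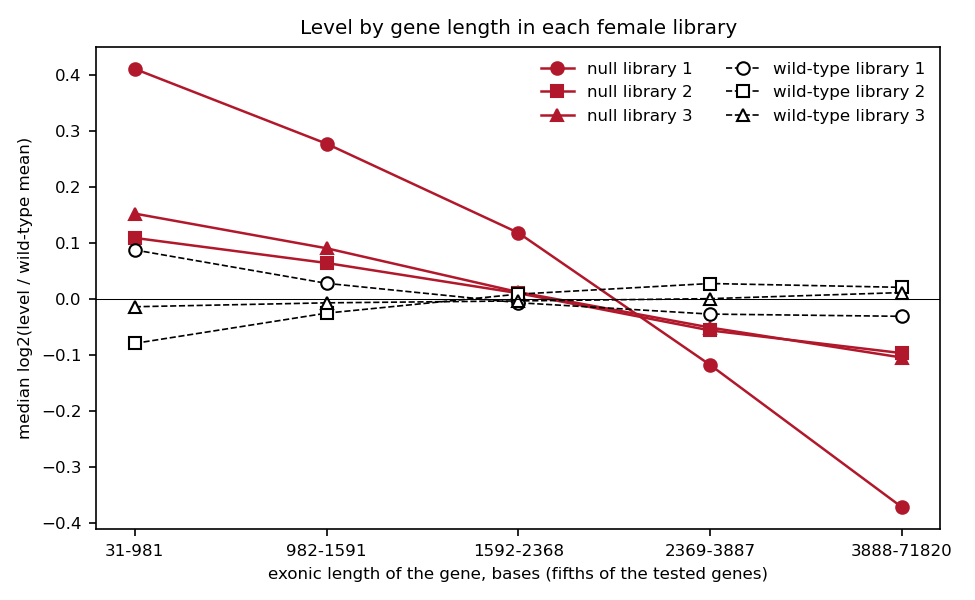
Median log2 level over the mean of the wild-type females (vertical axis) in 5 classes of exonic length (horizontal axis, bases), 1 line per female library. Null library 1 runs from 0.41 in the shortest genes to -0.37 in the longest, null libraries 2 and 3 from 0.11 and 0.15 to -0.10 and -0.11, and the wild-type libraries stay between -0.08 and 0.09.

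Nab2 itself had 0.58, 0.771 and 1.2 CPM in the null libraries, against 58.4, 62.1 and 57.3 CPM in the wild-type libraries, a log2 change of -6.10 (SE 0.46, adjusted p 1.08e-05 with edgeR), which checks the labels. Its level was low in all 3 null libraries and the groups did not overlap. Of the 31 genes of polyadenylation, poly(A) binding and deadenylation, all of them tested, 0 rose and 5 fell, Nab2 included, with a median log2 change of -0.09. Pop2, the catalytic deadenylase of the CCR4-NOT complex that shortens poly(A) tails, had 43.9, 48.1 and 48.5 CPM in null heads and 74.5, 81.6 and 75.1 CPM in wild-type heads, a log2 change of -0.72 (SE 0.07, adjusted p 6.36e-05 with edgeR). The cleavage factor su(f) changed by -0.41 (SE 0.09, adjusted p 0.0048 with edgeR). Pop2 and su(f) were lower in every null library than in any wild-type library, which was a condition of naming them. The other members called were the deadenylase genes twin, with -0.28 (SE 0.10, adjusted p 0.0479 with edgeR), and PAN2, with -0.26 (SE 0.09, adjusted p 0.0468 with edgeR). Neither was called in females alone or without wild-type library 1, 2 or 3, where 0 genes of the list rose and 3 fell. Neither was called with the length trend removed, where 2 members rose and 3 fell, and without null library 1 the numbers were 1 and 3.

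Among the 19 genes of the nuclear RNA exosome, which trims and degrades nuclear RNA, 4 rose and 1 fell. The share that rose lay near the 18.2% of all tested genes called higher. The summed level of these genes was 525.6, 510.6 and 542.6 CPM in the null libraries, against 546.6, 580.6 and 556.9 CPM in the wild-type libraries. Rrp4, one of its cap subunits, had 14.3, 11.8 and 11.6 CPM in null heads and 8.4, 7.51 and 7.61 CPM in wild-type heads, a log2 change of 0.68 (SE 0.11, adjusted p 0.00132 with edgeR). Only 1 member was higher and 1 lower with the length trend removed, and the same numbers were found without null library 1. Without null library 3 they were 6 and 2, without wild-type library 2 1 and 0, and without wild-type library 3 2 and 1. Of 47 splicing regulators 6 rose and 4 fell, among them the RNA-binding protein gene ps with 0.41 (SE 0.09, adjusted p 0.00562 with edgeR) and hfp, a poly-U binding splicing factor, with -0.41 (SE 0.09, adjusted p 0.00721 with edgeR). Without null library 1 or wild-type library 2 these numbers were 2 and 3, and without wild-type library 3 they were 2 and 2. Of 28 core spliceosome proteins 7 rose and 0 fell. SmB, a ring protein of the small nuclear ribonucleoproteins, had 24, 13.8 and 15.9 CPM in null heads and 6.5, 5.86 and 5.05 CPM in wild-type heads, a log2 change of 1.62 (SE 0.22, adjusted p 0.000448 with edgeR), and SmD1 of the same ring changed by 0.81 (SE 0.20, adjusted p 0.0103 with edgeR). With the length trend removed, or without null library 1 or wild-type library 2 or 3, 3 members of the core list were higher, with 1 lower in the fit without the length trend.

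Among protein quality control genes all 6 Hsp70 copies and 10 of 22 other chaperones rose, and 27 of 37 proteasome genes fell. All 6 Hsp70 copies, the stress-induced chaperones, rose by at least 2-fold, with log2 changes from 1.96 to 7.79 and a summed level of 231.3, 207.9 and 174.0 CPM in the null libraries, against 44.8, 23.8 and 26.3 CPM in the wild-type libraries. The copy with the log2 change of 7.79 was Hsp70Ba, with 55.2, 46.9 and 52.7 CPM in null heads and 0.379, 0.154 and 0.126 CPM in wild-type heads. Because the copies are nearly identical, the values of single copies are uncertain and the summed level is the safer one. In the list of 22 small heat shock proteins and other chaperones 10 rose, 1 fell and 11 did not pass. Hsp68, a further inducible Hsp70 family member, had 603.0, 483.0 and 368.7 CPM in null heads and 72, 55.3 and 49.7 CPM in wild-type heads, a log2 change of 3.04 (SE 0.24, adjusted p 1.24e-05 with edgeR). The small heat shock proteins, which hold unfolded proteins in solution, named here also rose. Hsp26 had 197.3, 184.1 and 161.4 CPM in the null libraries, against 40.5, 26.1 and 24.4 CPM in the wild-type libraries, a log2 change of 2.57 (SE 0.26, adjusted p 7.71e-05 with edgeR). For l(2)efl, a small heat shock protein of the alpha-crystallin family, the change was 2.14 (SE 0.18, adjusted p 2.13e-05 with edgeR), for Hsp27 2.07 (SE 0.25, adjusted p 0.000216 with edgeR) and for Hsp23 1.65 (SE 0.29, adjusted p 0.00178 with edgeR). Hsp83, the fly Hsp90, had a log2 difference of 0.08 (SE 0.12, adjusted p 0.644 with edgeR) and the heat shock transcription factor Hsf one of 0.08 (SE 0.08, adjusted p 0.446 with edgeR), neither of which passed.

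The proteasome degrades ubiquitin-tagged proteins in a barrel-shaped core particle fed by a regulatory particle that binds, unfolds and deubiquitinates them. Of 50 subunit and assembly genes in the files 37 were tested. Among the tested members 27 fell, 0 rose and 10 did not pass, against 13.6% of all genes called lower. The median log2 change was -0.56, and 36 of 37 lay below 0, the exception being the proteasome inhibitor PI31 at 0.26 (SE 0.13, adjusted p 0.139 with edgeR). In each of the 6 fits that left out 1 female library, 18 members stayed called. With the length trend removed 34 of 37 fell, with a median of -0.70. The summed level of the list was 7119, 7519 and 7872 CPM in the null libraries, against 10359, 11775 and 12276 CPM in the wild-type libraries, and the groups did not overlap.

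Of the regulatory particle's 21 tested genes 18 fell, with a median of -0.72, and of 13 tested core genes 8 fell, with a median of -0.43. Rpn1, a scaffold of the regulatory particle that receives ubiquitin carriers, had 138.4, 232.1 and 244.2 CPM in the null libraries, against 378.5, 480.2 and 460.0 CPM in the wild-type libraries, a log2 change of -1.10 (SE 0.21, adjusted p 0.00321 with edgeR). Its partner scaffold Rpn2 had 162.8, 278.2 and 303.6 CPM in null heads and 448.5, 545.8 and 550.2 CPM in wild-type heads, a log2 change of -1.05 (SE 0.22, adjusted p 0.00508 with edgeR). Rpt6R, a paralogue of the ATPase subunit Rpt6, had 12.6, 20.7 and 18.3 CPM in null heads and 37.8, 39.4 and 51.3 CPM in wild-type heads, a log2 change of -1.31 (SE 0.22, adjusted p 0.00153 with edgeR). Rpt6 itself changed by -1.04 (SE 0.24, adjusted p 0.00739 with edgeR) and the lid subunit Rpn6 by -0.91 (SE 0.17, adjusted p 0.00269 with edgeR). Null library 1 had the lowest level of each of these 5 genes and all 3 null libraries lay under every wild-type library. For Rpn1, Rpn2 and Rpt6R that separation was a condition of being named.

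Of 26 genes of the unfolded protein response of the endoplasmic reticulum 11 rose and 1 fell, with a median of 0.13 and none at 2-fold. The protein disulfide isomerase gene Pdi had 606.5, 486.1 and 484.1 CPM in null heads and 352.8, 323.3 and 319.9 CPM in wild-type heads, a log2 change of 0.66 (SE 0.10, adjusted p 0.00103 with edgeR). Manf, a secreted stress-induced neurotrophic factor, changed by 0.72 (SE 0.15, adjusted p 0.0041 with edgeR) and the isomerase CaBP1 by 0.61 (SE 0.10, adjusted p 0.00103 with edgeR). Herp, which acts in the removal of misfolded proteins, changed the other way, by -0.31 (SE 0.07, adjusted p 0.00652 with edgeR).

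**Figure D2:**
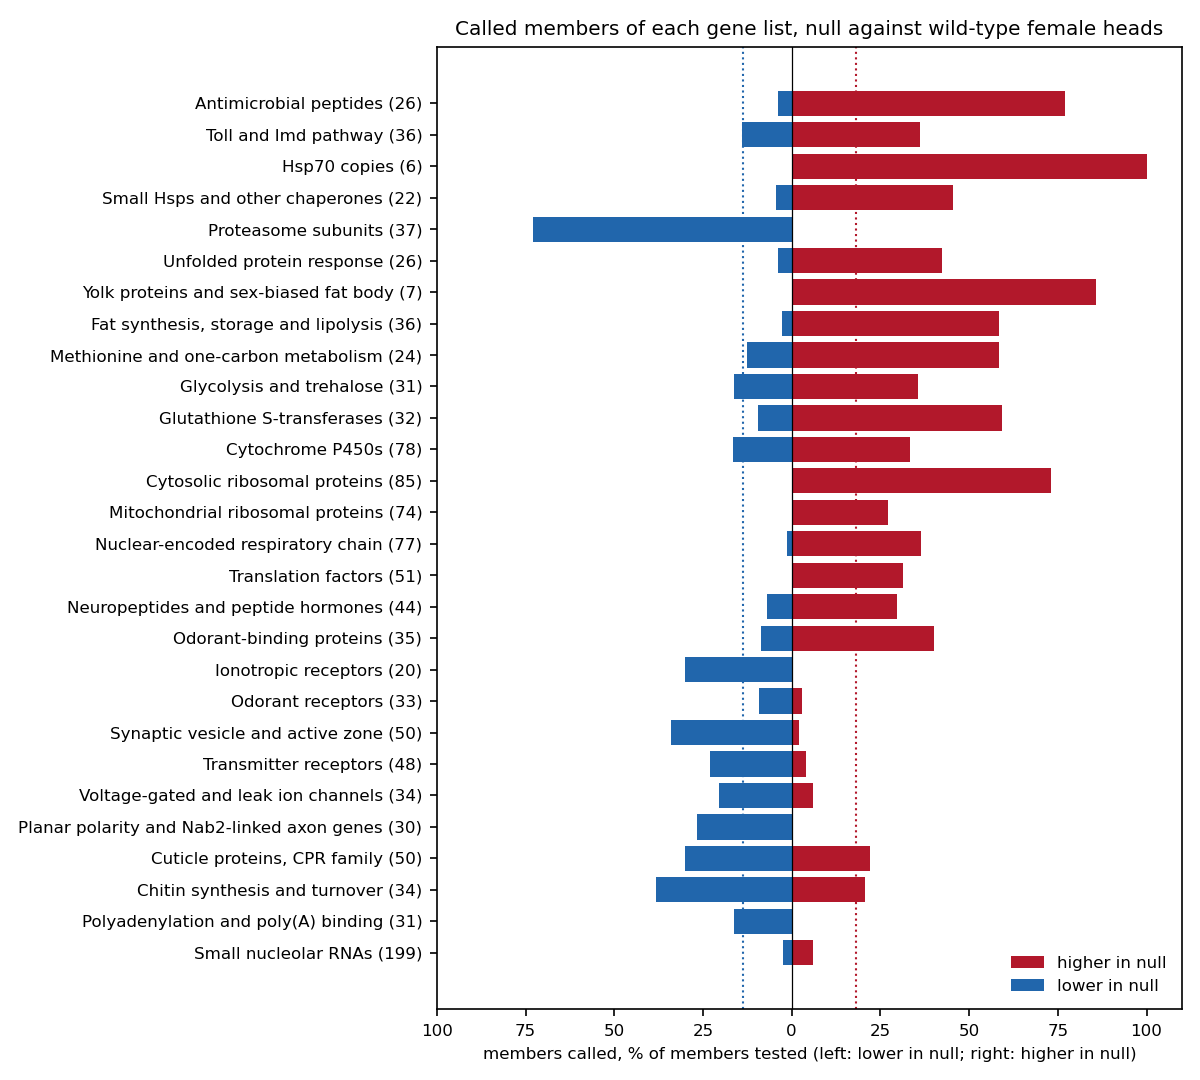
Share of tested members called in each gene list (percent; right of 0 higher in the null, left of 0 lower; number tested in brackets). Dotted lines mark the share of all genes called higher (18.2%) and lower (13.6%); the proteasome bar extends furthest to the left and the Hsp70 bar furthest to the right.

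Antimicrobial peptides, the secreted effectors of the Toll and Imd immune pathways, were higher in the null. 20 of 26 tested members rose, 1 fell and 5 did not pass, all called members by at least 2-fold, and the median log2 change was 1.59. In the fits that each left out 1 female library 19 rises and 1 fall were kept. The summed level was 6382, 4262 and 4949 CPM in the null libraries, against 2253, 1477 and 1876 CPM in the wild-type libraries. AttA, an attacin active on Gram-negative bacteria, had 162.1, 107.5 and 146.6 CPM in the null libraries, against 7.54, 3.62 and 7.7 CPM in the wild-type libraries, a log2 change of 4.46 (SE 0.60, adjusted p 0.000392 with edgeR). The diptericin genes DptB and DptA, targets of the Imd pathway, changed by 3.63 (SE 0.62, adjusted p 0.00172 with edgeR) and by 3.38 (SE 0.64, adjusted p 0.00282 with edgeR). Metchnikowin, the antifungal peptide of the gene Mtk, had 255.4, 149.3 and 157.8 CPM in null heads and 48, 16.6 and 26.5 CPM in wild-type heads, a log2 change of 2.62 (SE 0.47, adjusted p 0.00206 with edgeR). IM1, a Toll-induced peptide, changed by 2.71 (SE 0.26, adjusted p 5.92e-05 with edgeR) and Listericin by 3.13 (SE 0.35, adjusted p 0.000126 with edgeR). All 4 cecropins and 3 of 4 attacins rose. The peptide that fell was the defensin Def, with 7.13, 5.32 and 7.82 CPM in null heads and 20.3, 15.5 and 21.4 CPM in wild-type heads, a log2 change of -1.50 (SE 0.37, adjusted p 0.0103 with edgeR). Drosomycin (Drs), a Toll target, had 265.3, 188.4 and 227.3 CPM in null heads and 164.4, 140.9 and 118.2 CPM in wild-type heads, a log2 change of 0.68 (SE 0.29, adjusted p 0.0928 with edgeR), and did not pass. It was called in females alone, where 21 peptides of the list were higher. Cecropins, attacins and diptericins are families of similar copies whose reads may be shared. Null library 1 had the highest level of AttA, DptB, DptA and Mtk, and for each of them the lowest null value lay above the highest wild-type value. For AttA, DptB and DptA that separation was a condition of being named.

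Of 36 Toll and Imd pathway genes 13 rose and 5 fell, with a median of 0.08. Fitted in females alone, or without wild-type library 3, 9 rose and 2 fell. The genes named by the rule include circulating receptors that bind peptidoglycan. PGRP-SA, which activates Toll, had 53, 29.2 and 35.4 CPM in null heads and 17.2, 15.3 and 17.7 CPM in wild-type heads, a log2 change of 1.23 (SE 0.21, adjusted p 0.00182 with edgeR). PGRP-SD changed by 1.11 (SE 0.24, adjusted p 0.00598 with edgeR), and pirk, an inducible inhibitor of Imd signalling, by 0.94 (SE 0.24, adjusted p 0.0125 with edgeR). PGRP-LE, an intracellular sensor of the Imd pathway, had 20.1, 18.9 and 20.2 CPM in null heads and 32.8, 30.9 and 33.9 CPM in wild-type heads, a log2 change of -0.72 (SE 0.11, adjusted p 0.00102 with edgeR), and the Toll adaptor Myd88 changed by -0.53 (SE 0.12, adjusted p 0.00721 with edgeR). The NF-kappaB factor Relish (Rel) changed by 0.31 (SE 0.08, adjusted p 0.0173 with edgeR), a call lost under total counts, in females alone and without wild-type library 1. Among 8 tested lysozyme and thioester protein genes 4 rose and 0 fell. They include the complement-like Tep4 (0.42) and Mcr (0.38), and 2 of the list rose when females were fitted alone.

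No member of the stress-induced Turandot and JAK-STAT list passed with edgeR among the 9 tested, none had an unadjusted p under 0.05, and none passed with DESeq2 or limma voom. With the length trend removed 1 member was called. The summed level did not separate the genotypes, at 2010, 879.1 and 761.7 CPM in the null libraries, against 1887, 825.7 and 797.1 CPM in the wild-type libraries. TotA accounted for much of it, with 996.1, 214.3 and 163.9 CPM in null heads and 830.5, 199.8 and 179.0 CPM in wild-type heads. Library 1 of each genotype was the highest of its group.

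Of 23 tested hemocyte markers, genes of the circulating blood cells, 7 rose and 4 fell, and their summed level was 3529, 3504 and 3416 CPM in the null libraries, against 3544, 4039 and 3781 CPM in the wild-type libraries. The 6 markers taken as defining summed to 279.7 to 311.1 CPM in null libraries and 391.4 to 464.4 CPM in wild-type libraries. Hml carried this difference: the other 5 summed to 251.5 to 297.6 CPM in null libraries and 218.3 to 245.1 CPM in wild-type libraries, with 3 of them called higher and 0 lower. In whole-head RNA, fewer cells of a type and less RNA per cell cannot be told apart, here and for every other tissue named. Hemolectin (Hml), a clotting protein of plasmatocytes, had 13.5, 15.6 and 28.2 CPM in the null libraries, against 173.1, 219.3 and 209.2 CPM in the wild-type libraries, a log2 change of -3.39 (SE 0.34, adjusted p 7.71e-05 with edgeR). The groups were far apart, with the highest null value under every wild-type value, the latter a condition of naming the gene. The phagocytic receptors eater and NimC1 went the other way, with 0.87 (SE 0.13, adjusted p 0.000705 with edgeR) and 0.63 (SE 0.11, adjusted p 0.00185 with edgeR). PPO1, the crystal cell prophenoloxidase, had 15.7, 11.7 and 18.5 CPM in null heads and 5.75, 6.71 and 7.06 CPM in wild-type heads, a log2 change of 1.24 (SE 0.21, adjusted p 0.00147 with edgeR). NimB5 changed by 1.02 (SE 0.11, adjusted p 9.13e-05 with edgeR). Peroxidasin (Pxn) had a log2 difference of -0.06 (SE 0.09, adjusted p 0.608 with edgeR) and did not pass. The type IV collagen genes Col4a1 and vkg, which plasmatocytes and fat body secrete, changed by -0.78 (SE 0.15, adjusted p 0.00332 with edgeR) and -0.59 (SE 0.13, adjusted p 0.00692 with edgeR). NimA and He changed by -1.44 (SE 0.27, adjusted p 0.00254 with edgeR) and 1.05 (SE 0.23, adjusted p 0.00546 with edgeR).

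Most of the fat body genes named here, products of the fly's liver-like fat tissue, were higher in null females. The 6 markers taken for this tissue summed to 11461 to 17219 CPM in null libraries and 1870 to 3265 CPM in wild-type libraries, and 4 of 6 were called, all higher. In the list of yolk proteins, which the female fat body makes for the eggs, and sex-biased fat body products 6 of 7 genes rose, with 0 lower and a median of 2.13. Yp3 had 12376, 5331 and 6216 CPM in the null libraries, against 771.8, 334.0 and 242.5 CPM in the wild-type libraries, a log2 change of 4.15 (SE 0.45, adjusted p 0.000107 with edgeR). Yp1 had 8356, 4563 and 5679 CPM in the null libraries, against 1019, 722.0 and 614.4 CPM in the wild-type libraries, a log2 change of 2.98 (SE 0.50, adjusted p 0.00153 with edgeR), and Yp2 changed by 2.13 (SE 0.36, adjusted p 0.00168 with edgeR). The gene fit, a secreted female-biased satiety signal, had 342.8, 104.1 and 131.4 CPM in null heads and 7.67, 0.886 and 0.799 CPM in wild-type heads, a log2 change of 5.90 (SE 0.84, adjusted p 0.000566 with edgeR). Null library 1 was the highest of all 6 for Yp3, Yp1 and fit, and wild-type library 1 was the highest of the wild-type libraries. The lowest null value still lay above the highest wild-type value, as naming these 3 genes required.

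Germline markers were near 0: the 6 of them summed to 0.347 to 0.535 CPM in null libraries and 0.168 to 0.270 CPM in wild-type libraries, none passed the filter, and bcd had 0 counts in all 6. The 5 testis markers also summed to under 1 CPM, at 0.154 to 0.312 CPM in null and 0.168 to 0.241 CPM in wild-type libraries. The 5 midgut markers summed to 12.7 to 21.4 CPM in null and 5.75 to 7.05 CPM in wild-type libraries, 3 of them under 1 CPM throughout. Most of the sum was the amylase gene Amy-p, which had 20.2, 11.6 and 16.9 CPM in null heads and 4.34, 5.39 and 4.58 CPM in wild-type heads, a log2 change of 1.77 (SE 0.35, adjusted p 0.00348 with edgeR).

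A list of 8 larval serum proteins, which are storage proteins made before metamorphosis, and other fat body products had 4 rises and 1 fall. The rises were Lsp2, Fbp2 and the odorant-binding proteins Obp99a and Obp99b, which are also counted among the odorant-binding proteins. Lsp2 had 1107, 664.2 and 344.2 CPM in the null libraries, against 80.3, 101.1 and 84.7 CPM in the wild-type libraries, a log2 change of 2.99 (SE 0.34, adjusted p 0.000153 with edgeR), with the 3 null values well apart from each other. Lsp1gamma had 47.5, 49.5 and 48.1 CPM in null heads and 79.3, 117.9 and 123.5 CPM in wild-type heads, a log2 change of -1.14 (SE 0.16, adjusted p 0.00056 with edgeR). Lsp1alpha (-0.58), Lsp1beta (-0.34) and the storage protein receptor gene Fbp1 (0.62) did not pass. Fbp1 was called higher in females alone, and limma voom called all 3 Lsp1 genes lower. Lsp1beta was also called lower without wild-type library 1. Of 20 lipoprotein and lipid transport genes 5 rose and 3 fell. The main haemolymph lipoprotein apolpp had 7209, 5912 and 5597 CPM in the null libraries, against 2025, 926.8 and 964.7 CPM in the wild-type libraries, a log2 change of 2.26 (SE 0.41, adjusted p 0.00236 with edgeR). Mtp, which loads lipid onto it, had 68, 64.6 and 68.5 CPM in null heads and 38, 33.1 and 31.4 CPM in wild-type heads, a log2 change of 0.97 (SE 0.12, adjusted p 0.000198 with edgeR). The lipocalin Karl changed by 0.77 (SE 0.15, adjusted p 0.00317 with edgeR). Npc2h, of a sterol-binding family, fell with -0.82 (SE 0.15, adjusted p 0.00252 with edgeR), as did the scavenger receptor pes with -0.35 (SE 0.08, adjusted p 0.00967 with edgeR).

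Enzymes of fat synthesis, storage and breakdown rose more often than they fell. 21 of 36 tested members rose, 1 fell and 14 did not pass, and the median was 0.46. In the fits that each left out 1 female library 18 rises were kept, and 26 members rose with the length trend removed. Desat1, which makes monounsaturated fatty acids, had 1123, 1020 and 1142 CPM in the null libraries, against 625.3, 391.0 and 353.3 CPM in the wild-type libraries, a log2 change of 1.26 (SE 0.26, adjusted p 0.0046 with edgeR). The fatty acid synthase FASN1 had 1592, 1415 and 1396 CPM in null heads and 846.8, 1012 and 881.7 CPM in wild-type heads, a log2 change of 0.68 (SE 0.11, adjusted p 0.0014 with edgeR), the triglyceride-forming enzyme gene mdy (midway) changed by 0.66 (SE 0.11, adjusted p 0.00181 with edgeR) and the triglyceride lipase bmm (brummer) by 0.57 (SE 0.12, adjusted p 0.00419 with edgeR). The carnitine palmitoyltransferase whd, the gate to mitochondrial fat oxidation, had 382.8, 317.5 and 279.9 CPM in null heads and 171.7, 162.4 and 176.0 CPM in wild-type heads, a log2 change of 0.94 (SE 0.11, adjusted p 0.000146 with edgeR). Acox57D-d, a peroxisomal oxidase, changed by 1.00 (SE 0.11, adjusted p 0.000123 with edgeR) and the lipase gene Lip2 by 2.19 (SE 0.39, adjusted p 0.00193 with edgeR). SREBP (-0.01) and ATPCL (0.00) did not pass. CG1942, currently named Dgat2, fell with 16.4, 13.7 and 12.2 CPM in null heads and 24.4, 29.1 and 30.5 CPM in wild-type heads, a log2 change of -0.99 (SE 0.22, adjusted p 0.00722 with edgeR).

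Methionine and one-carbon metabolism, which supplies methyl groups through S-adenosylmethionine, changed with a median of 0.55: 14 of 24 tested members rose, 3 fell and 7 did not pass. Gnmt, glycine N-methyltransferase, which consumes S-adenosylmethionine, had 58.3, 36.5 and 44.3 CPM in the null libraries, against 5.3, 3.62 and 2.48 CPM in the wild-type libraries, a log2 change of 3.59 (SE 0.44, adjusted p 0.000206 with edgeR). Sardh, which recycles its product sarcosine, had 49.7, 31.5 and 38.9 CPM in null heads and 12.5, 10.1 and 5.13 CPM in wild-type heads, a log2 change of 2.10 (SE 0.35, adjusted p 0.00146 with edgeR). Shmt, which feeds glycine and serine carbon into folate, changed by 1.28 (SE 0.21, adjusted p 0.00138 with edgeR), Nmdmc, a mitochondrial folate enzyme, by 1.61 (SE 0.24, adjusted p 0.000765 with edgeR) and Ahcy, which removes S-adenosylhomocysteine, by 0.87 (SE 0.15, adjusted p 0.00189 with edgeR). CG10621 had 340.6, 211.3 and 202.8 CPM in null heads and 82.7, 56 and 54.7 CPM in wild-type heads, a log2 change of 1.96 (SE 0.22, adjusted p 0.000142 with edgeR). Null library 1 was the highest in Gnmt, Sardh and CG10621, and no null value overlapped a wild-type value, as naming these genes required. Thymidylate synthase (Ts) fell with -0.88 (SE 0.23, adjusted p 0.0135 with edgeR). The summed level of the 24 genes was 4394, 3510 and 3538 CPM in the null libraries, against 2683, 2581 and 2548 CPM in the wild-type libraries.

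Of 31 glycolysis, glycogen and trehalose genes 11 rose and 5 fell, with a median of 0.12. Tret1-2, a trehalose transporter paralogue, changed by 1.6 (SE 0.17, adjusted p 9.89e-05 with edgeR) and fbp, the gluconeogenic fructose-1,6-bisphosphatase, by 1.15 (SE 0.15, adjusted p 0.000295 with edgeR). Glycogen synthase (GlyS) changed by -0.50 (SE 0.11, adjusted p 0.005 with edgeR) and the glycogen debranching enzyme gene CG9485 by -0.81 (SE 0.14, adjusted p 0.00186 with edgeR). Fitted in females alone, or without wild-type library 3, 7 members rose. Of 16 citric acid cycle genes 3 rose and 1 fell, 2 in all without wild-type library 2 or 3, with Idh, isocitrate dehydrogenase, at 0.78 (SE 0.13, adjusted p 0.00126 with edgeR).

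**Figure D3:**
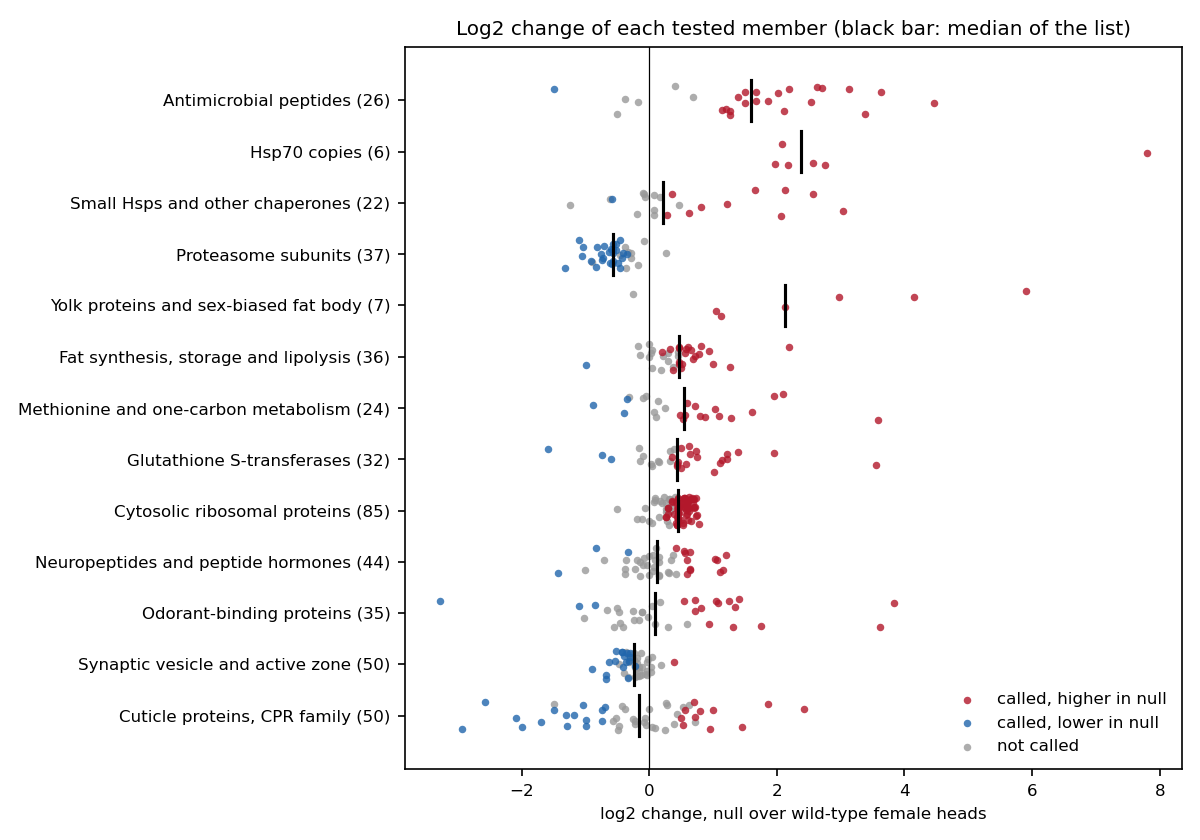
Log2 change of each tested member, null over wild-type female heads, in 13 gene lists. Red points were called higher in the null, blue points lower and grey points not called, and the black bar is the list's median, 1.59 for antimicrobial peptides, 2.37 for the Hsp70 copies and -0.56 for the proteasome.

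Detoxification enzymes rose more often than they fell, with members called in both directions in each family. Over all tested genes 18.2% were called higher and 13.6% lower, so the falls lay near or under the background. Of 32 tested glutathione S-transferases, which conjugate glutathione to reactive compounds, 19 rose and 3 fell, with a median of 0.44. GstD5 had 4.24, 2.74 and 2.28 CPM in null heads and 0.138, 0.154 and 0.505 CPM in wild-type heads, a log2 change of 3.56 (SE 0.41, adjusted p 0.000154 with edgeR). GstE8 changed by 1.95 (SE 0.22, adjusted p 0.000128 with edgeR) and GstE11 by 1.39 (SE 0.13, adjusted p 4.81e-05 with edgeR). In the same gene cluster GstE4 had 30.1, 22.5 and 16.5 CPM in null heads and 108.6, 50 and 47.4 CPM in wild-type heads, a log2 change of -1.58 (SE 0.36, adjusted p 0.00749 with edgeR), and GstE1 changed by -0.74 (SE 0.14, adjusted p 0.00244 with edgeR). Neighbouring Gst genes are similar in sequence, and how shared reads were assigned was not given in the sources used here. Of 78 cytochrome P450 genes 26 rose and 13 fell. Cyp6a17, which is known for its part in temperature preference, had 149.1, 110.5 and 133.7 CPM in null heads and 23.1, 32.1 and 30.9 CPM in wild-type heads, a log2 change of 2.19 (SE 0.17, adjusted p 1.09e-05 with edgeR). Its neighbour in the gene cluster Cyp6a23 went the other way, with 45.5, 32.7 and 33.7 CPM in null heads and 94.8, 109.7 and 106.5 CPM in wild-type heads, a log2 change of -1.48 (SE 0.17, adjusted p 0.000128 with edgeR). Cyp6a20, known from work on aggression, changed by -1.21 (SE 0.12, adjusted p 5.92e-05 with edgeR) and Cyp4p1 by 2.07 (SE 0.29, adjusted p 0.000532 with edgeR). Cyp9f3 had 4.99, 3.31 and 5.05 CPM in null heads and 25.2, 28.6 and 27.7 CPM in wild-type heads, a log2 change of -2.61 (SE 0.15, adjusted p 1.21e-06 with edgeR). Cyp12d1-d, 1 of a pair of near-identical copies, changed by 4.22 (SE 0.67, adjusted p 0.00116 with edgeR).

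Of 19 antioxidant enzymes 9 rose and 2 fell. Sod2, the mitochondrial superoxide dismutase, had 185.2, 139.0 and 142.4 CPM in null heads and 93.7, 85.5 and 90.4 CPM in wild-type heads, a log2 change of 0.79 (SE 0.10, adjusted p 0.000299 with edgeR). The peroxiredoxins Jafrac1 and Jafrac2 changed by 0.62 (SE 0.09, adjusted p 0.000888 with edgeR) and 0.85 (SE 0.18, adjusted p 0.00523 with edgeR). Prx2540-1 and Prx2540-2 fell by 1.44 and 1.10 on the log2 scale, and as neighbouring copies of one gene they may share reads. Sod2 lay higher, and both Prx2540 genes lower, in every null library than in any wild-type library, which was a condition of naming them.

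Ribosomal protein genes were higher in null females, most of all in null library 1. Of 85 cytosolic ribosomal protein genes 62 rose and 0 fell, with a median of 0.46 and none at 2-fold. The summed level was 80897, 55149 and 56764 CPM in the null libraries, against 46478, 47032 and 46091 CPM in the wild-type libraries. Null library 1 was far above the other null libraries, and those lay above every wild-type library. RpL37a had 907.7, 593.1 and 576.1 CPM in the null libraries, against 411.3, 408.4 and 389.9 CPM in the wild-type libraries, a log2 change of 0.78 (SE 0.15, adjusted p 0.00287 with edgeR). RpL36A and RpL31 changed by 0.75 (SE 0.18, adjusted p 0.00824 with edgeR) and 0.74 (SE 0.16, adjusted p 0.00637 with edgeR). These genes are short, with a median exonic length of 921.5 bases against 1933 over all tested genes. With the length trend removed 29 rose, with a median of 0.22. Fitted in females alone 22 rose, without wild-type library 2 36 and without wild-type library 3 27, and the median without null library 1 was 0.24.

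Calls in other lists of short genes depended on length and on single libraries as well. Without wild-type libraries 2 and 3 in turn, calls over all genes also fell, from 3573 to 2068 and 2077. In those fits the median of mitochondrial ribosomal proteins was 0.25 and 0.26, against 0.28 with all libraries. That of the respiratory chain was 0.30 and 0.27, against 0.28. Of 74 mitochondrial ribosomal protein genes 20 rose and 0 fell, but with the length trend removed 6 rose and 2 fell, and without null library 1 6 rose and 1 fell. The number rising was 32 without null library 2, and without wild-type libraries 2 and 3 in turn it was 6 and 5. Of 77 nuclear-encoded subunits of the respiratory chain, which carries out oxidative phosphorylation, 28 rose and 1 fell, against 5 and 4 with the length trend removed and 12 and 1 without null library 1. Without wild-type libraries 2 and 3 in turn 3 and 5 rose, and in females alone 4. ND-MWFE, a complex I subunit, had 205.8, 139.7 and 140.5 CPM in null heads and 112.8, 80.9 and 104.9 CPM in wild-type heads, a log2 change of 0.70 (SE 0.16, adjusted p 0.00824 with edgeR). Translation factors are longer, and of 51 tested 16 rose and 0 fell, with 14 rising when the length trend was removed and 8 without either wild-type library 2 or 3. Among them eEF1beta, the exchange factor of elongation factor 1, had 533.2, 374.7 and 336.1 CPM in the null libraries, against 171.4, 188.2 and 170.9 CPM in the wild-type libraries, a log2 change of 1.23 (SE 0.14, adjusted p 0.000131 with edgeR). Its companion subunit eEF1delta changed by 0.60 (SE 0.10, adjusted p 0.00157 with edgeR) and Tctp by 0.54 (SE 0.11, adjusted p 0.00448 with edgeR). For eEF1beta the lowest null value was above the highest wild-type value, which was a condition of naming it.

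**Figure D4:**
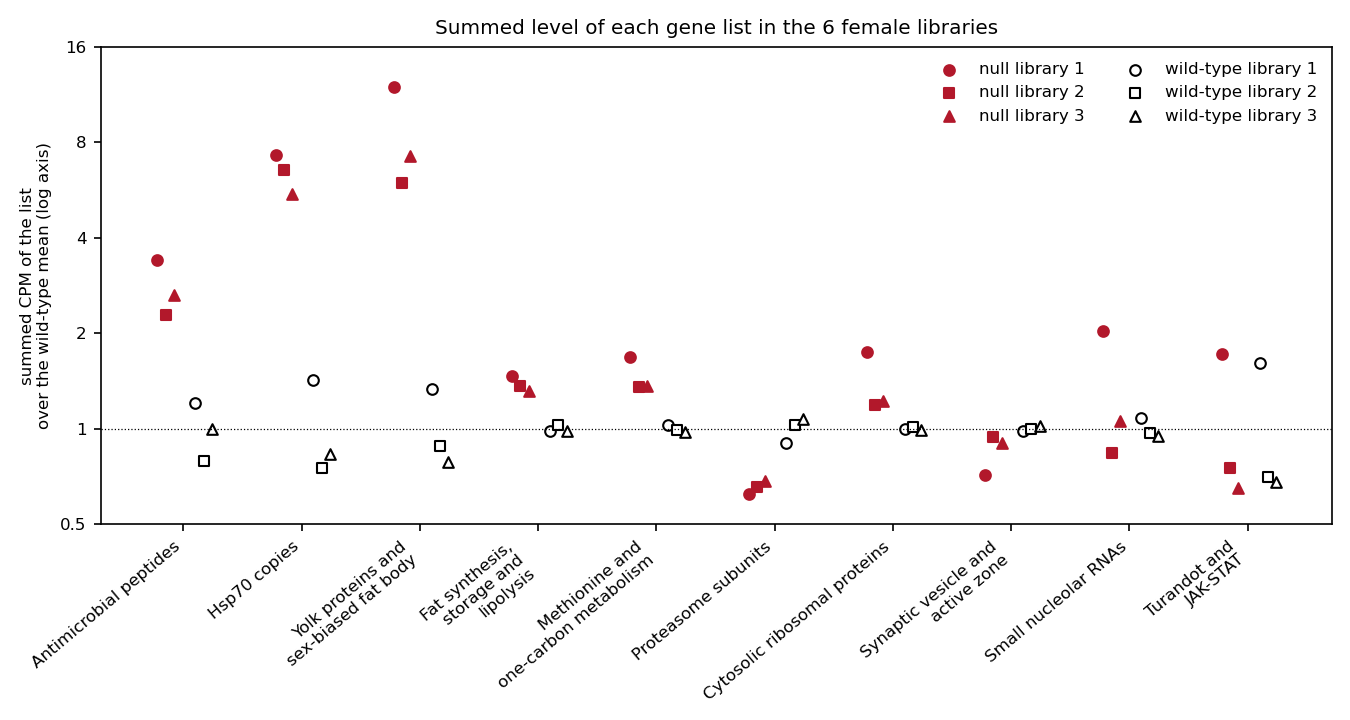
Summed CPM of 10 gene lists in each female library over the mean of the 3 wild-type libraries (log axis); filled red symbols are null libraries and open symbols wild-type libraries. Antimicrobial peptides, Hsp70, yolk and fat genes lie above 1 and proteasome genes below 1 in all 3 null libraries, while null library 1 alone is far from 1 for small nucleolar RNAs (2.04, against 0.84 and 1.06 in null libraries 2 and 3).

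Genes of synapses and neuronal signalling, which are mostly long, lay slightly lower in null females. In the longest class of all tested genes (3888 bases and more) 24.9% were called lower and 4.79% higher. Shares near these are no more than the background of long genes. Of 50 genes of synaptic vesicles and active zones 1 rose, 17 fell and 32 did not pass, with a median of -0.24 and none at 2-fold. The median exonic length of these genes was 5739 bases. With the length trend removed 10 fell and the median was -0.11. Fitted in females alone 6 fell, and without wild-type libraries 2 and 3 in turn 7 and 6 fell. Nlg2, a neuroligin of the postsynaptic membrane, had 36.1, 56.6 and 61 CPM in the null libraries, against 84.3, 102.7 and 99.7 CPM in the wild-type libraries, a log2 change of -0.90 (SE 0.17, adjusted p 0.00273 with edgeR). ChAT, which makes acetylcholine, had 64.2, 107.5 and 106.8 CPM in null heads and 136.9, 151.2 and 155.6 CPM in wild-type heads, a log2 change of -0.67 (SE 0.16, adjusted p 0.00957 with edgeR). Fife, an active zone scaffold, changed by -0.68 (SE 0.17, adjusted p 0.0116 with edgeR). Null library 1 was the lowest for these 3 genes, and their null and wild-type values did not overlap, as naming them required. The pan-neuronal marker elav had a log2 difference of -0.25 (SE 0.15, adjusted p 0.219 with edgeR) and the active zone protein gene brp one of -0.33 (SE 0.20, adjusted p 0.221 with edgeR), neither of which passed. The 5 neuron markers summed to 1096, 1485 and 1430 CPM in the null libraries, against 1609 to 1686 CPM in the wild-type libraries. These markers are long too, with a median exonic length of 10715 bases. Their median log2 change was -0.30, against -0.14 with the length trend removed and -0.12 without null library 1. With all libraries 1 of them was called lower, and 0 were called in either of those fits. The part of the marker difference in the results for synaptic genes was not tested.

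The falls among transmitter receptors, ion channels and polarity genes lay near the 24.9% called lower in the longest class of genes. Of 48 transmitter receptor genes 2 rose and 11 fell, with 5 and 7 when the length trend was removed. Their median was -0.24, and -0.11 with the trend removed. In females alone 2 rose and 4 fell, and without wild-type libraries 2 and 3 in turn 3 and 4 fell. The nicotinic subunit gene nAChRbeta3 had 39.8, 28.6 and 29.3 CPM in null heads and 44.1, 54.9 and 48.9 CPM in wild-type heads, a log2 change of -0.60 (SE 0.12, adjusted p 0.00469 with edgeR), and the octopamine receptor Oamb changed by -0.51 (SE 0.10, adjusted p 0.00338 with edgeR). Of 34 ion channel genes 2 rose and 7 fell, but with the length trend removed 8 rose and 5 fell. The channel median was -0.22, and -0.05 with the trend removed. The inward rectifier potassium channel Irk1 changed by 0.76 (SE 0.11, adjusted p 0.000728 with edgeR), the cyclic nucleotide-gated channel CngA by -0.68 (SE 0.11, adjusted p 0.00137 with edgeR) and the potassium leak channel Ork1 by -0.56 (SE 0.10, adjusted p 0.00172 with edgeR). Without wild-type library 2 or 3, 1 channel gene rose and 3 fell. Planar cell polarity genes, with which Nab2 is known to interact in axon guidance, were taken as a list of 30 with other Nab2-linked axon genes. In it 0 rose and 8 fell, with 5 lower when the length trend was removed and 4 and 3 without wild-type libraries 2 and 3 in turn. The median of this list was -0.23, and -0.07 with the trend removed. The core polarity gene pk (prickle) had 12.1, 15.8 and 18 CPM in null heads and 25.2, 29.9 and 28.3 CPM in wild-type heads, a log2 change of -0.86 (SE 0.14, adjusted p 0.00151 with edgeR). The frizzled receptor fz changed by -0.46 (SE 0.10, adjusted p 0.00563 with edgeR) and the cadherin ft (fat) by -0.51 (SE 0.11, adjusted p 0.00485 with edgeR).

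Neuropeptide genes are short, with a median exonic length of 1038 bases, and rose about as often as other genes of that length. Of 44 tested 13 rose and 3 fell, with a median of 0.13. Among all tested genes of 982 to 1591 bases 26.2% were called higher and 7.65% lower, with a median of 0.15. With the length trend removed 12 rose and 4 fell, and the median was -0.04. Of 6 insulin-like peptides 3 rose and 1 fell, the rises being those made in the insulin-producing cells of the brain. Ilp3 had 56, 37.7 and 37.6 CPM in the null libraries, against 18.1, 19.2 and 19.5 CPM in the wild-type libraries, a log2 change of 1.21 (SE 0.16, adjusted p 0.00042 with edgeR). Ilp5 had 14.8, 11.6 and 13 CPM in null heads and 6.5, 6.47 and 5.89 CPM in wild-type heads, a log2 change of 1.06 (SE 0.14, adjusted p 0.000423 with edgeR), and Ilp2 changed by 0.54 (SE 0.12, adjusted p 0.00519 with edgeR), a call lost with the length trend removed. Ilp8, the relaxin-like peptide that delays metamorphosis after tissue damage in larvae, had 2.36, 2.27 and 2.62 CPM in null heads and 3.79, 7.32 and 8.66 CPM in wild-type heads, a log2 change of -1.44 (SE 0.40, adjusted p 0.0177 with edgeR), a call lost without wild-type library 2 or 3. Corazonin (Crz), a stress-related peptide, had 25.5, 17.3 and 16.6 CPM in null heads and 9.6, 8.52 and 8.37 CPM in wild-type heads, a log2 change of 1.16 (SE 0.16, adjusted p 0.000411 with edgeR). Drosulfakinin (Dsk), a satiety peptide, changed by 1.10 (SE 0.20, adjusted p 0.00248 with edgeR), NPF by 0.57 (SE 0.12, adjusted p 0.00435 with edgeR) and the clock peptide Pdf by 0.65 (SE 0.13, adjusted p 0.00419 with edgeR). No null value of Ilp3, Ilp5, Crz or Dsk overlapped a wild-type value, against 47.9% of all tested genes without overlap. For Ilp3, Crz and Dsk this was a condition of being named. Of 24 insulin signalling genes and FOXO targets 3 rose and 1 fell. Without null library 1, or without wild-type library 2, 1 rose and 0 fell. Without null library 3, 3 rose and 4 fell.

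Among the opsins of the eye the largest change was that of Rh5. Of 43 phototransduction genes 10 rose and 6 fell, with a median of 0.09. Rh5, the blue opsin, had 323.1, 247.0 and 263.1 CPM in the null libraries, against 110.8, 133.1 and 126.7 CPM in the wild-type libraries, a log2 change of 1.17 (SE 0.12, adjusted p 6.48e-05 with edgeR). The main opsin ninaE had 19226, 14010 and 14365 CPM in null heads and 10368, 10867 and 9741 CPM in wild-type heads, a log2 change of 0.62 (SE 0.14, adjusted p 0.0068 with edgeR). Rh3 (0.19), Rh4 (0.05) and Rh6 (0.16) did not pass. The 8 photoreceptor markers summed to 23815 to 29864 CPM in null libraries and 18717 to 21281 CPM in wild-type libraries. Without ninaE the other 7 summed to 9806 to 10639 CPM in null and 8656 to 10414 CPM in wild-type libraries, which overlap. The calls of this list were 4 higher and 2 lower in females alone, 8 and 1 without wild-type library 2 and 3 and 2 without wild-type library 3. Cryptochrome (cry), the blue-light receptor of the clock, changed by 0.72 (SE 0.16, adjusted p 0.00656 with edgeR), and of 23 clock genes 4 rose and 3 fell, with 2 called without wild-type library 2 and 3 without wild-type library 3. Of 20 eye pigment genes 3 rose and 3 fell. Vermilion (v), which starts brown ommochrome pigment synthesis, had 100.1, 43.6 and 52 CPM in null heads and 21.5, 23.9 and 20.1 CPM in wild-type heads, a log2 change of 1.58 (SE 0.29, adjusted p 0.0025 with edgeR). The pteridine transporter subunit bw (brown) changed by -0.67 (SE 0.12, adjusted p 0.00175 with edgeR) and purple (pr), of pteridine synthesis, by -0.78 (SE 0.17, adjusted p 0.00597 with edgeR).

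Odorant-binding proteins, secreted carriers of the sensory lymph, rose more often than they fell: 14 of 35 rose and 3 fell, 9 of the rises at 2-fold or more. Obp8a had 20.4, 13.1 and 11.5 CPM in the null libraries, against 1.14, 0.848 and 1.14 CPM in the wild-type libraries, a log2 change of 3.84 (SE 0.32, adjusted p 1.72e-05 with edgeR). Obp99a, also made in fat body, had 73, 38.8 and 37.2 CPM in null heads and 7.47, 2.93 and 1.56 CPM in wild-type heads, a log2 change of 3.61 (SE 0.43, adjusted p 0.000175 with edgeR). Obp56a changed by 1.75 (SE 0.23, adjusted p 0.000295 with edgeR) and Obp47a, the lowest, by -3.27 (SE 0.35, adjusted p 0.000104 with edgeR). With the length trend removed 14 rose and 7 fell. Odorant receptors had a median of -0.73 over 33 tested members, with 31 below 0, but 3 fell and 1 rose. Without null library 1 or 3, 2 were called, and without wild-type library 1, 1. Their summed level was 74.6, 64.3 and 49.9 CPM in the null libraries, against 131.7, 82.9 and 71.6 CPM in the wild-type libraries, so the groups overlapped and wild-type library 1 was the highest. Orco, the shared co-receptor, had 39.9, 32.8 and 24.1 CPM in null heads and 76.2, 45 and 35.8 CPM in wild-type heads, a log2 change of -0.70 (SE 0.31, adjusted p 0.106 with edgeR), and did not pass. Or49b was the member named by the rule, with 0.268, 0.231 and 0.487 CPM in null heads and 2.68, 2.39 and 2.9 CPM in wild-type heads, a log2 change of -2.98 (SE 0.27, adjusted p 3.11e-05 with edgeR). Of 20 ionotropic receptors 6 fell and 0 rose, with a median of -0.59. In the fits that each left out 1 female library 2 of these falls were kept. The summed level of the ionotropic receptors was 54.7, 50.5 and 48.2 CPM in the null libraries. In the wild-type libraries it was 71.8, 59.6 and 53.3 CPM, so the groups overlapped and wild-type library 1 was again the highest. The co-receptor Ir25a had 7.62, 7.48 and 7.67 CPM in null heads and 13, 12.2 and 10.9 CPM in wild-type heads, a log2 change of -0.66 (SE 0.12, adjusted p 0.00194 with edgeR). Of 14 gustatory receptors 1 rose and 2 fell.

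Of 20 glial markers 6 rose and 3 fell, with 5 called without wild-type library 2. Wrapper, of midline and cortex glia, changed by 0.95 (SE 0.16, adjusted p 0.00131 with edgeR), the trehalose transporter Tret1-1 of perineurial glia by 0.61 (SE 0.10, adjusted p 0.00171 with edgeR) and glutamine synthetase Gs2 by 0.56 (SE 0.11, adjusted p 0.00317 with edgeR). The glial transcription factor repo had 67.2, 74.4 and 71.9 CPM in null heads and 88.5, 91 and 89.8 CPM in wild-type heads, a log2 change of -0.34 (SE 0.07, adjusted p 0.00459 with edgeR). Of 33 sarcomere genes 3 rose and 5 fell. Without null library 1 or wild-type library 2, 2 rose and 0 fell, without wild-type library 3 4 rose and 0 fell, and without null library 3 5 rose and 8 fell. The 6 muscle markers summed to 12837 to 15649 CPM in null libraries and 16326 to 19110 CPM in wild-type libraries, and the 7 glial ones to 2742 to 3209 CPM in null and 2670 to 2806 CPM in wild-type libraries. Without Gs2 the other 6 glial markers summed to 1765 to 1947 CPM in null and 1914 to 2072 CPM in wild-type libraries. TpnC41C, a troponin C, changed by 1.11 (SE 0.17, adjusted p 0.000892 with edgeR). Of 11 tubulin and actin genes 2 rose and 1 fell, 1 in all without null library 1 or wild-type library 3, with alphaTub85E at -1.40 (SE 0.32, adjusted p 0.00784 with edgeR).

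Newly eclosed flies are still hardening their cuticle, and genes of this process changed both ways. Of 99 cuticle proteins of the CPR family, chitin-binding structural proteins, 50 were tested, 11 rose and 15 fell. At 2-fold or more 10 fell and 3 rose. Cpr50Cb had 4.99, 7.48 and 7.19 CPM in the null libraries, against 26, 30.7 and 27.5 CPM in the wild-type libraries, a log2 change of -2.09 (SE 0.28, adjusted p 0.00036 with edgeR). Cpr50Ca changed by -2.0 (SE 0.26, adjusted p 0.000308 with edgeR) and Ccp84Ag by -2.58 (SE 0.43, adjusted p 0.00139 with edgeR). In the other direction Cpr72Ec had 118.9, 134.1 and 148.0 CPM in null heads and 71.2, 83 and 77.2 CPM in wild-type heads, a log2 change of 0.79 (SE 0.12, adjusted p 0.000705 with edgeR), and Edg91 changed by 1.87 (SE 0.21, adjusted p 0.000137 with edgeR). The split moved to 5 higher and 17 lower with the length trend removed and to 6 and 11 without wild-type library 2. Of 4 tested Tweedle cuticle proteins TwdlG fell with -1.48 (SE 0.17, adjusted p 0.00014 with edgeR), and 1 of the 2 calls was lost without null library 2 or wild-type library 2.

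Of 34 tested genes of chitin synthesis and turnover 7 rose and 13 fell. The rises included imaginal disc growth factors, secreted chitinase-like proteins without enzyme activity, of which 5 of 6 rose. Idgf6 had 400.6, 280.7 and 278.8 CPM in the null libraries, against 141.6, 141.7 and 129.8 CPM in the wild-type libraries, a log2 change of 1.22 (SE 0.15, adjusted p 0.000249 with edgeR). Idgf1 and Idgf3 changed by 1.38 (SE 0.15, adjusted p 0.000104 with edgeR) and 1.24 (SE 0.11, adjusted p 3.73e-05 with edgeR). The chitin synthase of the cuticle, kkv, had 134.8, 187.6 and 180.4 CPM in null heads and 278.9, 309.4 and 300.7 CPM in wild-type heads, a log2 change of -0.82 (SE 0.15, adjusted p 0.00226 with edgeR). Cht4, a chitinase, had 0 counts in each null library and 2.65, 1.04 and 2.35 CPM in the wild-type libraries, which with a floor of 3 counts per library is at least 16.7-fold lower. Cht8 had 0.357, 0.385 and 0.449 CPM in null heads and 4.61, 2.58 and 7.4 CPM in wild-type heads, a log2 change of -3.59 (SE 0.41, adjusted p 0.00014 with edgeR). The falls numbered 7 without wild-type library 2 and 6 without wild-type library 3. Among 11 tanning and melanin genes 2 rose and 4 fell: amd, which acts in catecholamine metabolism of the cuticle, had -0.83 (SE 0.14, adjusted p 0.00162 with edgeR), and black (b), which makes beta-alanine, -0.74 (SE 0.16, adjusted p 0.00576 with edgeR). Of 10 yellow family genes 1 rose and 2 fell, the rise being yellow-d2 with 90.4, 67.5 and 71.7 CPM in null heads and 0.138, 0.308 and 0.0841 CPM in wild-type heads. Without null library 3 or wild-type library 2 or 3, 1 of this family was called. Of 12 tested genes of cuticular hydrocarbon synthesis 3 rose and 2 fell. The 5 markers of oenocytes, the cells that make these hydrocarbons, are all members of this list. They summed to 1026 to 1147 CPM in null libraries and 371.6 to 640.7 CPM in wild-type libraries, nearly all of it Desat1, which rose. The other 4 summed to 4.08 to 7.8 CPM in null libraries and 15.4 to 19.2 CPM in wild-type libraries. Against the rise of FASN1, its paralogue FASN2 had 1.38, 1.5 and 1.98 CPM in null heads and 11.9, 11.8 and 13.8 CPM in wild-type heads, a log2 change of -2.93 (SE 0.18, adjusted p 1.82e-06 with edgeR).

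Of 20 genes of the juvenile hormone pathway 5 rose and 4 fell. The methyltransferase jhamt, which completes the hormone in the corpus allatum, had 8.29, 8.17 and 5.58 CPM in null heads and 13.3, 21 and 21.1 CPM in wild-type heads, a log2 change of -1.33 (SE 0.32, adjusted p 0.0103 with edgeR). Jheh2, an epoxide hydrolase, changed by 0.66 (SE 0.15, adjusted p 0.00787 with edgeR). Without wild-type library 2, 2 rose and 2 fell, and without wild-type library 3, 1 rose and 2 fell. Of 32 ecdysone genes 4 rose and 8 fell. The early ecdysone-response factor Eip74EF changed by -0.51 (SE 0.13, adjusted p 0.0103 with edgeR), the nuclear receptor Hr4 by -0.95 (SE 0.19, adjusted p 0.00358 with edgeR) and sad, of ecdysteroid synthesis, by 0.93 (SE 0.20, adjusted p 0.00611 with edgeR). Without wild-type libraries 2 and 3 in turn 4 and 3 ecdysone genes fell.

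Summed levels of spliceosomal and small nucleolar RNAs were highest in null library 1. The 27 tested spliceosomal RNA genes summed to 36060, 17339 and 18504 CPM in the null libraries, against 16568, 17154 and 16182 CPM in the wild-type libraries, and 4 rose and 0 fell. The number rising was 11 without null library 2, 8 without null library 3 and 2 without wild-type library 2 or 3. Without null library 1, 2 rose and 1 fell, with a median of 0.10 against 0.50 with it. The largest change was that of snRNA:U2:34ABa, with 1241, 412.7 and 430.4 CPM in null heads and 2.27, 2.31 and 2.23 CPM in wild-type heads. Its copies are near-identical, so the split of reads among them is uncertain. The 199 tested small nucleolar RNAs, guides of ribosomal RNA modification, summed to 42518, 17499 and 22082 CPM in the null libraries, against 22424, 20246 and 19801 CPM in the wild-type libraries, and 12 rose and 5 fell. Without null library 2 the numbers were 71 and 4, without wild-type library 2 6 and 4, without wild-type library 3 6 and 1, and with the length trend removed 10 and 20. Without null library 1 they were 7 and 9 and the median log2 change was -0.14, against 0.30 with it. snoRNA:Psi28S-1153 had 30, 15.7 and 26.8 CPM in null heads and 2.68, 2.04 and 1.81 CPM in wild-type heads, a log2 change of 3.46 (SE 0.28, adjusted p 1.4e-05 with edgeR). snoRNA:Psi28S-3316a had 6.11, 3.55 and 5.88 CPM in null heads and 27.3, 23.2 and 22.5 CPM in wild-type heads, a log2 change of -2.24 (SE 0.26, adjusted p 0.000173 with edgeR). Of 60 tested transfer RNA genes 6 rose and 1 fell, and without null library 1 or any single wild-type library 1 rose and 1 fell. Without null library 2 21 rose, and without null library 3 12 rose. Of 14 Cajal body RNAs 1 rose, scaRNA:PsiU2-55, with 1.33 (SE 0.25, adjusted p 0.00289 with edgeR). Of 29 microRNA genes, whose short products this library type does not capture well, 1 fell and 0 rose, and none was called without null library 1 or wild-type library 3. Of 117 histone genes 5 passed the filter, and 2 of them rose, a number that was 1 without null library 1 and 0 without wild-type library 2 or 3.

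The same lists were read in males, whose 6 libraries share none with the females. In males 9.93% of genes were called, 4.89% higher and 5.03% lower. Antimicrobial peptides had a median of 1.80, with 20 of 26 higher and 3 lower. The Hsp70 copies had a median of 3.59, with 6 of 6 higher. Proteasome genes had a median of -0.37, with 5 of 37 lower. Fat genes had 11 of 36 higher and one-carbon genes 6 of 24. Hml changed by -2.53 (adjusted p 0.000606 with edgeR), FASN2 by -3.54 (adjusted p 3.34e-07 with edgeR), Cyp9f3 by -2.62 (adjusted p 1.58e-06 with edgeR) and Gnmt by 2.63 (adjusted p 0.0016 with edgeR) in males. These moved in the direction seen in females. Cytosolic ribosomal proteins had a male median of 0.06 and the respiratory chain one of -0.02.

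The difference of the null effect between the sexes was tested directly. A single gene, pgant4, passed over all genes (0.00891% of those tested), while 11.6% had an unadjusted p under 0.05. DESeq2 called 27 genes and limma voom 13. No member of a list passed this test with edgeR. Among cytosolic ribosomal proteins 46 of 85 had an unadjusted p under 0.05, and among respiratory chain genes 31 of 77. Both are lists of short genes. In the shortest class of all tested genes the median null effect was 0.29 in females and 0.05 in males. The part of that length trend in these 2 counts was not tested. Yolk genes showed large differences that did not pass. Yp3 changed by 4.15 (SE 0.45, adjusted p 0.000107 with edgeR) in females and had a log2 difference of 0.38 (adjusted p 0.652 with edgeR) in males, and the effects differed by 3.77 (SE 0.58, unadjusted p 3.25e-05 and adjusted p 0.182 with edgeR). For Yp1 the male value was -1.62 (adjusted p 0.117 with edgeR) and the difference between the sexes 4.60 (SE 0.77, unadjusted p 6.7e-05 and adjusted p 0.184 with edgeR). Obp99a had -0.01 (adjusted p 0.998 with edgeR) in males, and its effects differed by 3.62 (SE 0.82, unadjusted p 0.00083 and adjusted p 0.371 with edgeR).

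**Figure D5:**
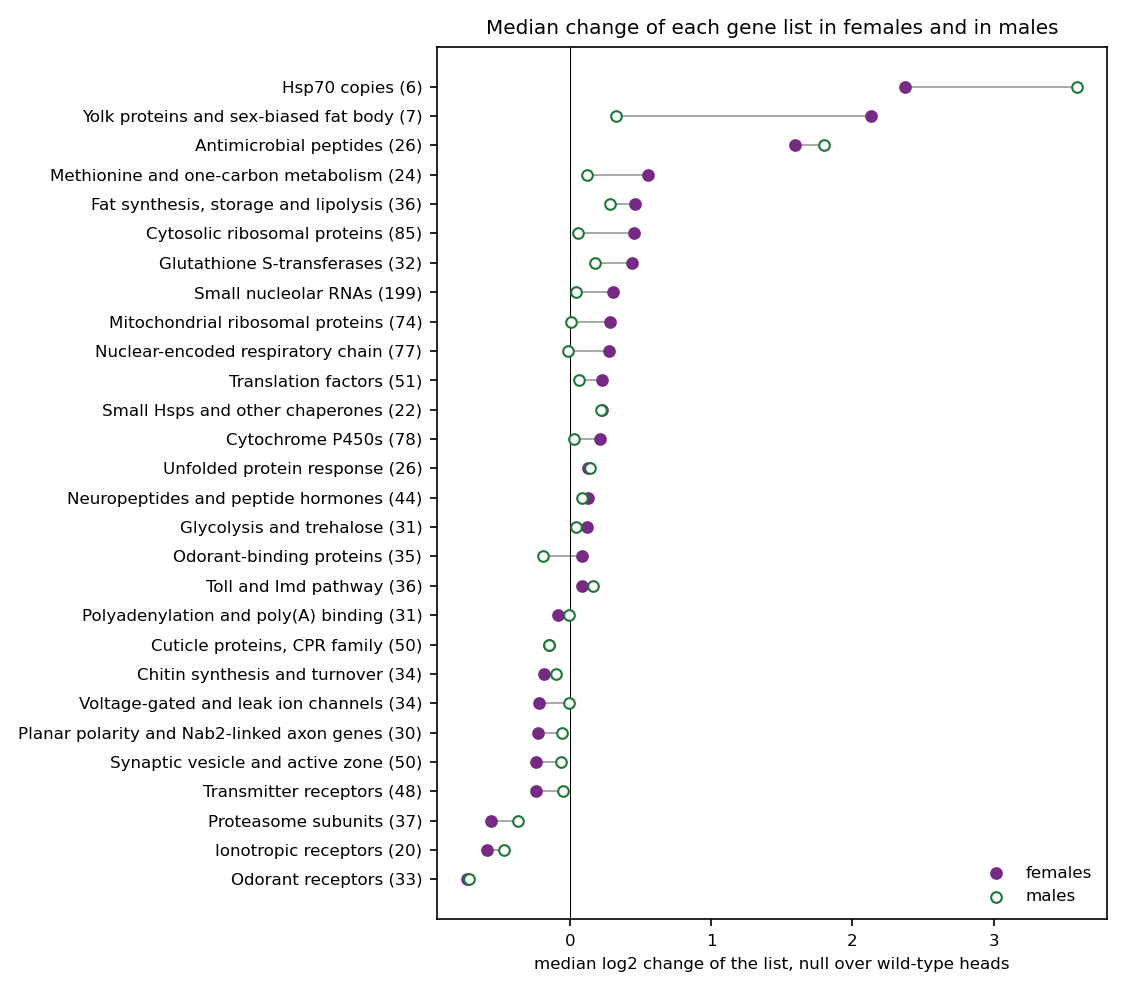
Median log2 change of each gene list, null over wild type, in females (filled) and males (open), with the number of tested genes in brackets. Antimicrobial peptides lie at 1.59 in females and 1.80 in males, proteasome subunits at -0.56 and -0.37, and yolk and sex-biased fat body genes at 2.13 and 0.32.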

How the data were processed

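The heads of 3 Nab2 null and 3 wild-type female pools were compared, with the male pools in the same model. Gene counts were made by the authors with STAR 2.5.2b-0 and featureCounts 1.6.0.3 on genome build BDGP6, per the submitters' processing notes; annotation release and strand setting are not given in the sources used here. The log2 fold changes and adjusted p-values in the authors' deposited table came from DESeq2 2.11.40.1, per the submitters' processing notes. That table listed 3799 genes under 0.05 in females, and 3432 genes were called both there and here, all in the same direction.

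From the deposited counts, edgeR 4.0.16 in R 4.3.3 (filterByExpr, TMM scaling, quasi-likelihood test) was fitted to 12 libraries in 4 groups, so that the spread was estimated from all of them. P-values were adjusted by Benjamini-Hochberg over 11223 genes. DESeq2 1.42.0 and limma 3.58.1 (voom with sample weights) were alternatives, beside total-count and RLE scaling, no filter, females alone, a block for the replicate number, a threshold of 0.01, each library left out, and, chosen after the data were seen, removal of each library's trend with exonic length. Gene names, types and exonic lengths came from an Ensembl annotation, which matched 99.4% of the genes. The test was also run on simulated counts, drawn from the wild-type female means with 200 genes changed in null females. Those counts held no trend with gene length and no outlying library, so that run does not bear on the calls given here. Libraries held 23648813 to 30751922 counts. The labels do not say that the pools came from separate crosses, so p-values measure the spread between these libraries, which may be technical. No pairing of the libraries by replicate number was established, and shared handling of same-numbered libraries was not excluded.

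The gene lists and their members were chosen with earlier results of these data known. Named genes were, per list, up to 3 with the highest and 3 with the lowest log2 change among members called in the fit and in each of 6 fits without 1 female library, whose null and wild-type values did not overlap and whose mean over the 6 libraries reached 20 counts. Genes outside that rule, chosen after their values were seen, included pgant4, Yp2, Ilp2, Ilp5, Ilp8, NPF, Shmt, Nmdmc, Ahcy, whd, IM1, Mtk, Listericin, Drs, Hsp27, Hsp23, Hsp83, Hsf, vkg, eater, NimC1, Pxn, Orco, elav, brp, TotA, Rpt6, Rpn6, PI31, SREBP, ATPCL, Lsp1alpha, Lsp1beta, Fbp1, Rel, mdy, Rh3, Rh4, Rh6, Hsp70Ab, twin and PAN2.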

Additional observations from a re-analysis of the deposited data

Results flagged for a closer look

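The effect of the null on pgant4, which encodes an enzyme of O-linked glycosylation, differed between the sexes by -2.78 on the log2 scale (female minus male, SE 0.35, adjusted p 0.0483 with edgeR's interaction test). The gene had 12, 14 and 17 counts in null females and 27, 38 and 31 counts in wild-type females, a log2 change of -1.10. It had 20, 18 and 19 counts in null males and 6, 7 and 8 counts in wild-type males, a log2 change of 1.68. The direction was opposite in the sexes and the groups did not overlap in either sex. The counts are low, and over the alternatives this adjusted p took values from 0.00148 to 0.310. The gene was named after its values were seen.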

How the results depend on the processing

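The count of 3573 genes called in females was 2303 (1303 higher and 1000 lower) when the 6 female libraries were fitted alone and 1571 (963 higher and 608 lower) at an adjusted p under 0.01. With 1 library of the 12 left out it ran between 2068 and 3838, the lowest values being 2068 without wild-type library 2 and 2077 without wild-type library 3. Scaling by total counts gave 1392 higher and 2253 lower, against 2042 and 1531. The 735 genes at 2-fold or more, 446 higher and 289 lower, were 357 higher and 390 lower by total counts and 341 higher and 374 lower with the length trend removed. They numbered 541 to 871 with 1 library left out. The 1 gene that differed between the sexes became 2 with no filter, 5 with the replicate block, 27 with DESeq2, 13 with limma voom and 0 to 3 with 1 library left out. Where it was 0, edgeR's unadjusted p was under 0.05 for 770 to 2074 genes. The replicate block gave 3544 called genes in females and 732 at 2-fold or more. For pairing, the deviation of each library from its own group's mean log level was taken for each gene. Between same-numbered null and wild-type libraries these deviations correlated at 0.187, 0.0138 and 0.0423 in females. In males they correlated at 0.220, -0.191 and -0.0315, so no pairing was established. Under the block Orco was called lower and 1 odorant receptor rose and 6 fell, and 22 small nucleolar RNAs rose and 5 fell. The naming rule required the call in each of the 6 fits without 1 female library, so those fits could not lose a named gene. Over all genes 1765 of the 3573 calls held in these 6 fits. Of 172 genes named by the rule, 165 kept their call and direction under each alternative. The others, sei, ND-18, mRpS2, mRpS18B, PCB, Tep3 and Sf3b3, kept their direction and lost the call in females alone, by total counts or with the length trend removed, and the cause was not tested. The numbers called in 20 of 57 lists stayed within 1.5 times under each alternative, among them the proteasome, Hsp70, antimicrobial peptide, yolk, fat synthesis and one-carbon lists. By total counts 12 respiratory chain genes rose and 2 fell, 11 mitochondrial ribosomal protein genes rose and 1 fell, 8 translation factors rose and 1 fell, 3 insulin signalling genes rose and 5 fell, and 1 gustatory receptor rose and 5 fell. The depth limits genes of few counts most, as for pgant4.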

Other observations

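Beyond the lists, 33.1% of 10205 tested protein-coding genes were called, 1934 higher and 1443 lower in null females. Of 361 tested long noncoding RNA genes 22.7% were called, 39 higher and 43 lower, and of 213 antisense RNA genes 23.5%, 29 higher and 21 lower. The share called was 36.3% of 2361 genes on chromosome arm 2R, 32.7% of 1999 on 2L, 32.0% of 2198 on 3L, 29.5% of 2725 on 3R and 29.2% of 1789 on the X chromosome. Of 96 genes on chromosome 4 8 rose and 9 fell. The sex-determination gene Sxl, whose exon use differs between the sexes, changed by 0.65 in null females at the level of gene counts, which do not separate its isoforms.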
